A study of Mus musculus with 8 samples.

Results

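Chemokine ligands are small secreted proteins, and their transcripts were followed across brown adipose tissue (BAT) libraries of mice exposed to cold or fed a high-fat diet. Members were taken by symbol alone, with no measured value: genes named Ccl or Cxcl with a number, Cx3cl1 or Xcl1, on an autosome and without pseudogenes. This gave 37 of 49452 genes in the table, 22 CC ligands, 13 CXC ligands and the 2 ligands Xcl1 and Cx3cl1. A further row that carries a ligand symbol lies on an unplaced scaffold and was left out.

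All 8 libraries came from BAT of male C57BL/6 mice with no transgene, in 4 groups of 2. The mice of the temperature groups were 10 to 12 weeks old and were kept at 22 °C (replicates 4 and 7) or held at 4 °C for 24 h (replicates 2 and 11), of which the methods give 20 h of cold followed by 4 h of fasting. Whether mice at 22 °C were also fasted is not given. The mice of the diet groups were 32 weeks old and had received a control diet with 11 kJ% fat (CD, replicates 6 and 8, labelled normal chow) or a high-fat diet with 54 kJ% fat (HFD, replicates 2 and 6) for 28 weeks. The labels do not say that the libraries of a group came from separate mice, so p-values measure the spread between these libraries. The study asked which transcripts follow BAT activity under both challenges.

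Chemokines guide leukocytes by binding G protein-coupled receptors on their surface, and they are held on endothelium and matrix by heparan sulfate. Inflammatory ligands such as Ccl2 are induced by cytokines and draw monocytes into adipose tissue, whereas homeostatic ligands such as Cxcl12 are made constantly by stromal cells. Because each library is bulk tissue, more cells of a type and more RNA per cell cannot be told apart for any ligand.

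Between 10228 and 11436 genes reached 1 FPKM (fragments per kilobase of transcript, scaled to the mapped fragments of the library) per library, and Ucp1, the uncoupling protein of brown adipocytes, stood at 699 to 6462 FPKM. In every group 1 library carried more than 100 FPKM of the satellite-repeat gene Gm10800 and is here called satellite-high, namely replicate 4 at 22 °C, replicate 11 at 4 °C, replicate 8 of CD and replicate 2 of HFD. All 2613 X genes were listed at 0 in 3 libraries, both at 22 °C and CD replicate 6. The identifiers in the labels share 1 beginning in 5 libraries (all 4 temperature libraries and CD replicate 6) and another in 3 (CD replicate 8 and both HFD libraries). What that beginning marks is not stated, so CD replicate 6 differs from the HFD libraries in it as well as in diet.

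Of the 37 ligands, 23 reached 1 FPKM in at least 1 library and 8 in every library. The 8 were Ccl6, Ccl9, Ccl11, Ccl25, Ccl27a, Cxcl9, Cxcl12 and Cxcl14. Ccl21c and Ccl26 were listed at 0 throughout. Ccl1, Ccl17, Ccl20 and Ccl22, which guide T cells and dendritic cells, together summed to at most 0.482 FPKM in any library. With a filter of 0.1 FPKM in 2 of the 4 libraries compared, 25 ligands entered the cold comparison and 31 the diet comparison. The 6 that entered neither (Ccl1, Ccl20, Ccl21c, Ccl26, Cxcl15 and Cxcl17) stayed at or below 0.137 FPKM. Ccl3, Ccl4, Ccl17, Ccl22, Cxcl3 and Cxcl5 entered only the diet comparison, which for a low gene means that the diet libraries carried it past the filter.

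The summed FPKM of the 37 ligands was 69.2 and 57.1 in the 22 °C libraries, 142 and 75.1 in the 4 °C libraries, 165 and 42.5 in the CD libraries, and 185 and 324 in the HFD libraries, replicates in the order given above. The CD libraries thus spanned the range from the lowest of all sums to a value near that of HFD replicate 2. Ccl6 was the ligand with the highest FPKM in 5 libraries. The others were led by Ccl11 in 22 °C replicate 4, by Ccl2 in CD replicate 6 and by Cxcl12 in CD replicate 8. Levels by library are shown in the plot of log2(FPKM + 1).

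**Figure D1:**
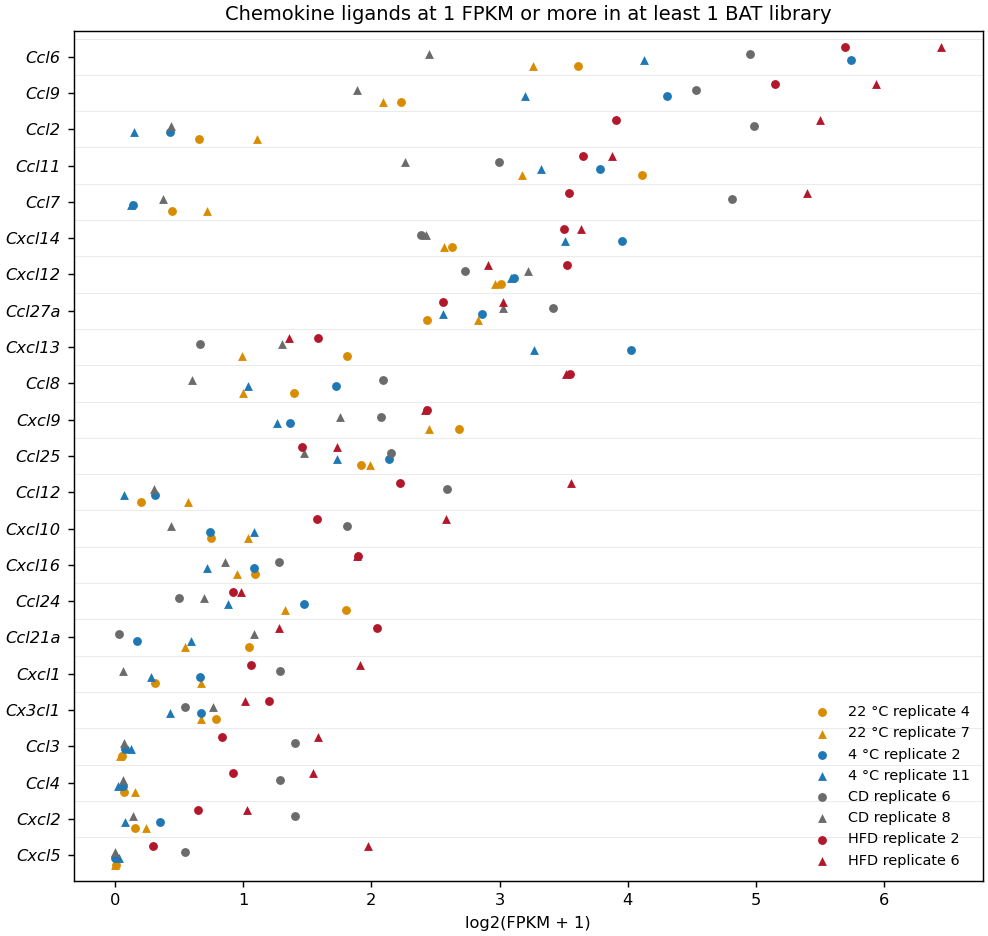
Level of each of the 23 ligands that reached 1 FPKM, as log2(FPKM + 1) on the horizontal axis, 1 point per library and 1 row per gene ordered by mean FPKM. Colours mark the groups and shapes the 2 libraries of a group. CD replicate 6 lies with the HFD libraries for Ccl2, Ccl7, Ccl3 and Ccl4, while CD replicate 8 lies with the temperature libraries.

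The cold comparison was led by 1 ligand that fell and 4 that were higher in both libraries without passing the test. Cxcl9, a ligand of Cxcr3 on activated T cells, fell by 1.25 on the log2(FPKM + 1) scale (limma adjusted p = 0.0467, SE 0.18). It was the only one of the 25 ligands tested that was past threshold (adjusted p under 0.05 and a change of at least 1), beside 1.44% of the 17477 genes tested in this comparison. Cxcl9 and 8 others, 9 of 25, had an unadjusted p under 0.05, beside 24.5% of all genes. With library type (satellite-high or not) as a term, Cxcl9, Cxcl13, Cxcl14 and Ccl9 were past threshold, 4 of 25 beside 4.92% of all genes. The median fold change of the ligands was -0.02 on the log2 scale, beside 0.07 over all genes tested, and median centring moved these values to -0.15 and -0.06.

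Cxcl9 (ENSMUSG00000029417, chr5:92321347-92328079, minus strand) stood at 5.41 and 4.48 FPKM at 22 °C and at 1.58 and 1.40 FPKM at 4 °C. It was at 3.22 and 2.37 FPKM under CD and at 4.41 and 4.35 FPKM under HFD. The 4 °C libraries were the lowest of all 8, and the 22 °C libraries the highest. The difference was -1.42 on the log2 scale between the satellite-high libraries and -1.09 between the others. The call was lost in 5 of 14 alternative settings, among them the fits without 22 °C replicate 4 (adjusted p = 0.071), 4 °C replicate 2 (0.121) or 4 °C replicate 11 (0.0613), within a range of 0.0107 to 0.171 over all alternatives. Both 22 °C libraries belong to the 3 without X gene values and neither 4 °C library does, so that property and temperature cannot be told apart.

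The other ligands of Cxcr3 sit beside Cxcl9 on chromosome 5 and did not share its pattern throughout. Cxcl11 was at 0.192 and 0.307 FPKM at 22 °C and at 0.0864 and 0.0734 FPKM at 4 °C (limma adjusted p = 0.137). It entered the test through the 22 °C libraries alone, so the filter of 0.1 FPKM fixed its direction. Cxcl10, an interferon-induced ligand, was at 0.678 and 1.06 FPKM at 22 °C and at 0.674 and 1.12 FPKM at 4 °C, so that its groups overlapped. Cxcr3 itself is an X gene and could not be compared. Both Cxcl10 and Cxcl11 overlap Art3 on the opposite strand, and whether the deposited values used strand is not stated.

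Among 12 listed genes of the interferon pathway, 10 were tested, 1 passed the test at 4 °C (1.44% of all genes) and 7 were lower in both libraries, beside 20.6% of all genes. Gbp2, a GTPase induced by interferon gamma, was at 11.8 and 13.1 FPKM at 22 °C and at 4.42 and 4.19 FPKM at 4 °C, and fell by 1.34 (log2, SE 0.18) with an adjusted p of 0.0442. Its call was lost in 8 of 14 alternatives, including each fit that left out 1 library, with adjusted p between 0.0174 and 0.213 over all alternatives. Irf1, a transcription factor downstream of interferon gamma, was at 8.23 and 10.7 against 4.28 and 4.85 FPKM (adjusted p = 0.0823). Ifng itself stayed at or below 0.0418 FPKM in every library. The list's median fold change was -0.37, beside 0.07 over all genes.

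The 250 bases before the start of Cxcl9 and Cxcl10 are shown because Cxcl9 passed the cold test while its neighbour Cxcl10 had overlapping groups, a difference that was itself not tested. The letters were taken from the RefSeq promoter table on GRCm38.p6 and are read 5′ to 3′ on the gene's strand. Capitals mark matches to a motif on either strand. In Cxcl10 (chr5:92348890-92349139, minus strand) these are, from left to right, the core of the interferon-stimulated response element (GAAA, any 2 bases, GAAA, 213 to 204 bases before the start), the NF-kappaB consensus (159 to 150), 2 overlapping matches to that consensus (104 to 94) and the AP-1 site (TGANTCA, 74 to 68). Cxcl9 (chr5:92328080-92328329, minus strand) holds none of the motifs searched within this window.
Cxcl9: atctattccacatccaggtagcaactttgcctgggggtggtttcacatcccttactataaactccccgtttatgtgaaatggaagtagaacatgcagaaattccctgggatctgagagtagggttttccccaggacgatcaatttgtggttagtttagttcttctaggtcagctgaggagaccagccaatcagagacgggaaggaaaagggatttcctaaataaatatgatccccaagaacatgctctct
Cxcl10: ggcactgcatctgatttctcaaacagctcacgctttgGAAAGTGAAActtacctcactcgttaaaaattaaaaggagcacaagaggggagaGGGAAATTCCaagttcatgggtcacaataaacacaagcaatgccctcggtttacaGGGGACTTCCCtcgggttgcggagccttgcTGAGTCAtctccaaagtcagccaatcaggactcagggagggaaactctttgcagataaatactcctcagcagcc

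Promoters were found for 25 of the 37 ligands, and for none of Ccl2, Ccl4, Ccl5, Ccl7, Ccl11, Ccl21c, Ccl24, Ccl26, Cxcl5, Cxcl11, Cxcl16 and Cxcl17. The NF-kappaB consensus was in 7 of the 25 (Ccl1, Ccl9, Ccl20, Cxcl1, Cxcl2, Cxcl3 and Cxcl10), beside 7.25% of the 32851 promoters in the table. The interferon element core was in 3 (Ccl19, Cxcl10 and Cxcl14), beside 2.98%. TGANTCA was in 3 (Ccl9, Ccl27a and Cxcl10), beside 6.75%, and the gamma-activated site TTCNNNGAA in 2 (Ccl17 and Cxcl14), beside 7.02%. The cAMP response element TGACGTCA was in 0, beside 1.55%. A match is a run of letters and not a measured binding site.

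Of the 25 ligands tested in the cold, 5 were higher in both 4 °C libraries (37.9% of all genes) and 6 were lower in both (20.6%). Of those differing by at least 1 (log2), the 4 ligands Cxcl13, Ccl9, Ccl6 and Cxcl14 were higher, beside 5.29% of all genes, and Cxcl9 was lower, beside 0.715%. The fifth ligand higher in both was Cxcl12, the ligand of Cxcr4, at 7.07 and 6.80 against 7.63 and 7.50 FPKM. Besides Cxcl9 and Cxcl11, the ligands lower in both were Ccl2, Ccl7, Ccl28 and Xcl1, all at 1.16 FPKM or less in these 4 libraries.

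Cxcl13 (ENSMUSG00000023078, chr5:95956951-95961068, plus strand), which draws B cells through Cxcr5, had the widest difference of the ligands tested. It was at 2.51 and 0.990 FPKM at 22 °C and at 15.3 and 8.64 FPKM at 4 °C. Both 4 °C libraries lay above all 6 others, where CD was at 0.585 and 1.46 FPKM and HFD at 1.996 and 1.56 FPKM. The fitted change was 2.24 (log2, SE 0.38, adjusted p = 0.0547), with 1.46 between the satellite-high libraries and 3.03 between the others. The gene was past threshold in 9 of 14 alternatives, with adjusted p from 0.000384 to 0.182. Of the 6 listed lymph node markers, 5 were in the table and summed to 0.473 to 0.650 FPKM at 22 °C and 0.306 to 0.359 FPKM at 4 °C. Cxcr5 was at or below 0.134 FPKM in every library.

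Cxcl14 (ENSMUSG00000021508, chr13:56288647-56296551, minus strand), a homeostatic CXC ligand, was at 5.17 and 4.91 FPKM at 22 °C and at 14.5 and 10.4 FPKM at 4 °C. Cxcl14 was higher by 1.14 (log2, SE 0.22, adjusted p = 0.0632) and was past threshold in 6 of 14 alternatives, with adjusted p from 0.0174 to 0.186. In the diet libraries it was at 4.23 and 4.36 FPKM under CD and at 10.3 and 11.4 FPKM under HFD. The CD libraries lay close together for Cxcl14, and the groups did not overlap in either comparison. Under HFD its adjusted p was 0.184 without a covariate and 0.00897 with library type as a term, and it ranged from 0.00897 to 0.925 over the alternatives.

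Ccl9 and Ccl6 are neighbouring CC ligands on chromosome 11 that both bind Ccr1. Ccl9 (ENSMUSG00000019122, chr11:83572919-83578636, minus strand) was at 3.70 and 3.25 FPKM at 22 °C and at 18.7 and 8.19 FPKM at 4 °C, a difference of 1.59 (log2, SE 0.38, adjusted p = 0.088). Ccl6 (ENSMUSG00000018927, chr11:83587882-83593087, minus strand) was at 11.2 and 8.57 against 52.5 and 16.5 FPKM, a difference of 1.50 (log2, SE 0.54, adjusted p = 0.174). In both genes 4 °C replicate 2 was well above 4 °C replicate 11, which itself lay above the 22 °C libraries. Without 4 °C replicate 11 both were past threshold (adjusted p = 0.0465 for Ccl9 and 0.0475 for Ccl6), as was Cxcl14, so 3 of 25 beside 2.57% of all genes. Without 4 °C replicate 2 none of the 3 was, with 0.69 (adjusted p = 0.203) for Ccl6, 1.04 (0.122) for Ccl9 and 0.92 (0.124) for Cxcl14. Between the satellite-high libraries Ccl6 differed by 0.52 and Ccl9 by 0.97, and between the others by 2.48 and 2.21. Over all alternatives the adjusted p of Ccl9 ranged from 0.0277 to 0.312 and that of Ccl6 from 0.0475 to 0.373. Ccl6 overlaps E230016K23Rik on the opposite strand.

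Marker genes of other cells were set beside these ligands. Of 10 macrophage and monocyte markers tested, 0 were past threshold in the cold and 3 were higher in both libraries (37.9% of all genes), with summed FPKM of 48.0 to 67.2 at 22 °C and 54.8 to 118 at 4 °C and none of them at 0 throughout. The higher sum was that of 4 °C replicate 2, the library with the most Ccl6 and Ccl9 of the 4. Cd163, a scavenger receptor of resident macrophages, was at 2.63 and 1.46 against 7.76 and 5.15 FPKM (adjusted p = 0.0779). Each of 11 skeletal muscle markers tested was above 22 °C in both libraries (37.9% of all genes), with sums of 137 to 593 FPKM at 22 °C and 2111 to 4674 FPKM at 4 °C. Of 9 markers of T, B and NK lymphocytes, 0 were past threshold and 5 were lower in both 4 °C libraries (20.6% of all genes), with sums of 4.62 and 4.99 FPKM at 22 °C and 3.91 and 2.71 FPKM at 4 °C. Of 5 white adipocyte markers, 0 were past threshold and 3 were lower in both (Lep, Nnat and Mest), while the sums were 140.4 and 80.3 against 243 and 122 FPKM. The rise of the sums was carried by Retn, the 1 marker higher in both, at 87.8 and 50.2 against 231 and 112 FPKM. With library type as a term, 6 muscle markers were past threshold and higher, 2 white adipocyte markers (Nnat and Lep) past it and lower, and 0 macrophage or lymphocyte markers past it, beside 4.92% of all genes. The part of these cells in the ligand values, Cxcl9 and Cxcl13 included, was not tested.

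**Figure D2:**
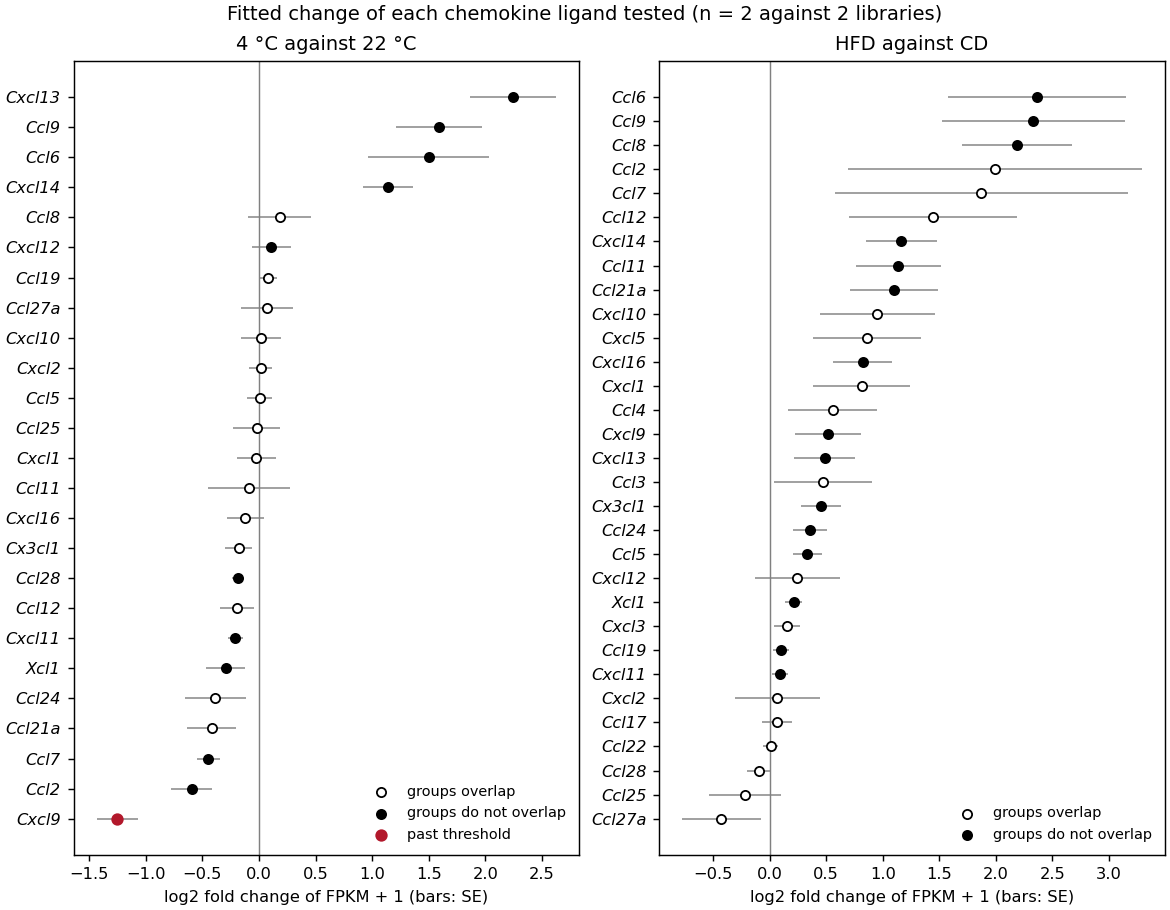
Fitted log2 fold change of log2(FPKM + 1) for the 25 ligands tested in the cold comparison and the 31 tested in the diet comparison, 2 libraries against 2, with bars for limma's SE. Filled points mark ligands whose groups did not overlap, open points those whose groups did, and the red point Cxcl9, which was past threshold. Ccl6, Ccl9 and Cxcl14 are filled and above 1 in both panels.

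Under HFD, which ligands passed the test depended on the fit. With limma and no covariate, 0 of 31 were past threshold, beside 0.0684% of the 17543 genes tested, and 10 of 31 had an unadjusted p under 0.05, beside 14.4%. Among the 10 was Xcl1, which entered the test through the HFD libraries alone. With library type (satellite-high or not) as a term in the fit of the same 4 libraries, 7 of 31 were past threshold, all higher under HFD, beside 4.25% of all genes: Ccl6, Ccl8, Ccl9, Ccl11, Ccl12, Ccl21a and Cxcl14. That fit leaves little residual freedom per gene, so its p-values rest mostly on the variance that limma shares over genes. Between the CD libraries, type also goes with the identifier beginning and with the presence of X gene values. The alternative settings called between 0 and 12. Of the 31, 28 had a fold change above 0, beside 79.3% of all genes. Their median fold change was 0.49 on the log2 scale, beside 0.18 over all genes, and median centring moved these values to 0.17 and -0.14.

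In 15 of the 31 ligands both HFD libraries lay above both CD libraries, beside 39.9% of all genes, and in 0 they lay below, beside 5.8%. Xcl1 is among the 15, but it was below the filter in both CD libraries, so the filter fixed its direction. Those that differed by at least 1 (log2) numbered 6, beside 3.3% of all genes: Ccl6, Ccl9, Ccl8, Cxcl14, Ccl11 and Ccl21a. The CD libraries themselves stood apart for some ligands. CD replicate 6 was at least 1 above CD replicate 8 on the log2 scale in 11 of the 31 ligands, beside 5.91% of all genes, and at least 1 below it in 1 (Ccl21a), beside 1.44%.

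Ccl2 and Ccl7 had the widest gap between the CD libraries. Ccl2 (ENSMUSG00000035385, chr11:82035571-82037453, plus strand), the main ligand of the monocyte receptor Ccr2, was at 30.7 FPKM in CD replicate 6 and 0.357 FPKM in CD replicate 8, and at 14.0 and 44.2 FPKM under HFD. Ccl7 (ENSMUSG00000035373, chr11:82045712-82047525, plus strand), another Ccr2 ligand, was at 27.2 and 0.298 FPKM under CD and at 10.6 and 41.2 FPKM under HFD. In both genes CD replicate 6 lay between the HFD libraries, and CD replicate 8 was within the range of the temperature libraries, which was 0.106 to 1.16 FPKM for Ccl2 and 0.0887 to 0.642 FPKM for Ccl7. CD replicate 6 was 86.0 times CD replicate 8 for Ccl2 and 91.4 times for Ccl7.

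The fits of these genes carried that spread. The fitted difference of Ccl2 was 1.99 (log2, SE 1.30, adjusted p = 0.538) and that of Ccl7 1.87 (SE 1.30, adjusted p = 0.563). Without CD replicate 6 they were 4.26 (adjusted p = 1.64e-14) and 4.09 (5.56e-14), and without CD replicate 8 they were -0.28 (0.913) and -0.35 (0.883). The direction of Ccl2 and Ccl7 under HFD therefore rested on CD replicate 8. Within library type, Ccl2 differed by 3.47 between HFD replicate 2 and CD replicate 8 and by 0.51 between HFD replicate 6 and CD replicate 6. Ccl2 overlaps Gm17268 on the opposite strand.

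Ccl12, a further Ccr2 ligand of the mouse, followed the same order at lower levels. It was at 5.01 and 0.237 FPKM under CD and at 3.68 and 10.7 FPKM under HFD, and 0.0501 to 0.488 FPKM at either temperature. Its adjusted p was 0.0136 with library type as a term, within a range of 2.61e-07 to 0.9999 over the alternatives. Ccl8 (ENSMUSG00000009185, chr11:82115185-82116799, plus strand), a CC ligand of the same cluster, was at 3.25 and 0.515 FPKM under CD and at 10.7 and 10.4 FPKM under HFD. For Ccl8 the HFD libraries were close together and above all 6 others, of which the highest was CD replicate 6. Ccl8 differed by 2.19 (log2, SE 0.48, adjusted p = 0.153), by 2.93 without CD replicate 6 (adjusted p = 3.14e-08) and by 1.45 without CD replicate 8 (0.0817), and its adjusted p with library type as a term was 0.0109. The gene was past threshold in 5 of 14 alternatives, with adjusted p from 3.14e-08 to 0.534.

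Ccl6 and Ccl9 had the highest FPKM of all ligands in both HFD libraries. Ccl6 was at 30.1 and 4.46 FPKM under CD and at 50.7 and 86.1 FPKM under HFD (log2 fold change 2.37, SE 0.79, adjusted p = 0.245). Ccl9 was at 22.1 and 2.71 against 34.5 and 60.2 FPKM (2.33, SE 0.81, adjusted p = 0.26). For both, CD replicate 6 was the nearer of the CD libraries and still below each HFD library, and the HFD mean was 2.28 and 2.14 times its value. Without CD replicate 6 the fold changes were 3.62 (adjusted p = 2.77e-07) and 3.65 (1.90e-08), and without CD replicate 8 they were 1.11 (0.452) and 1.01 (0.471). With library type as a term the adjusted p was 0.0126 for Ccl6 and 0.0146 for Ccl9. Over all alternatives it ran from 2.77e-07 to 0.635 and from 1.90e-08 to 0.654.

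Ccl3 and Ccl4, inflammatory CC ligands that lie next to Ccl6, were nearly silent outside CD replicate 6 and the HFD libraries. Ccl3 was at 1.65 FPKM in CD replicate 6 and at 0.783 and 1.996 FPKM under HFD, and at or below 0.0938 FPKM in the other 5 libraries. Ccl4 was at 1.44 FPKM in CD replicate 6 and at 0.889 and 1.91 FPKM under HFD, and at or below 0.115 FPKM elsewhere. Ccl5, a CC ligand made by T cells, did not follow them and stayed between 0.0571 and 0.579 FPKM. For scale, 1 fragment on a transcript of 1000 bases was worth 0.00958 to 0.0131 FPKM, so that the lowest of these values rest on a few fragments.

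**Figure D3:**
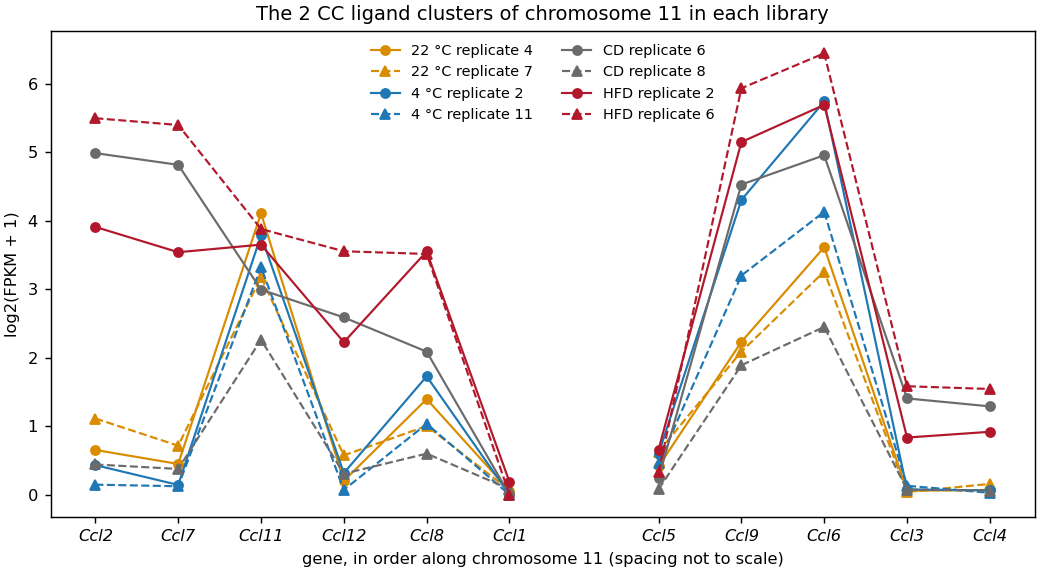
log2(FPKM + 1) of the 11 CC ligands of chromosome 11 in gene order, 1 line per library, with the cluster of 6 genes on the left and the cluster of 5 on the right. For Ccl2, Ccl7, Ccl3 and Ccl4 the CD replicate 6 line runs between the HFD lines, while Ccl11 and Ccl6 are present in every library and Ccl1 is near 0 in all.

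The clusters were not uniform. On GRCm38 the first spans chr11:82035571-82305690 with the 6 genes Ccl2, Ccl7, Ccl11, Ccl12, Ccl8 and Ccl1, and the second spans chr11:83525778-83664683 with the 5 genes Ccl5, Ccl9, Ccl6, Ccl3 and Ccl4. Ccl11 (ENSMUSG00000020676, chr11:82057823-82062955, plus strand), the eotaxin that attracts eosinophils through Ccr3, lies between Ccl7 and Ccl12 but did not share their low level at 22 °C. It was at 16.2 and 8.04 FPKM at 22 °C, 12.8 and 9.01 FPKM at 4 °C, 6.97 and 3.80 FPKM under CD and 11.6 and 13.7 FPKM under HFD. Its HFD libraries lay above its CD libraries (log2 fold change 1.14, SE 0.38, adjusted p = 0.245) and within the range of the 22 °C libraries. Its fold change without CD replicate 6 was 1.50 (adjusted p = 0.042), and with library type as a term its adjusted p was 0.013, within a range of 0.013 to 0.9999 over the alternatives. In the cold its sign depended on which library was left out.

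The CXC ligands that attract neutrophils through Cxcr2 were low, and of these Cxcl1 and Cxcl2 were among the 11 ligands with the gap between the CD libraries. Cxcl1 was at 1.44 and 0.0451 FPKM under CD and at 1.09 and 2.77 FPKM under HFD. Cxcl2 was at 1.65 and 0.101 FPKM under CD, the first above both HFD libraries at 0.567 and 1.05 FPKM. Cxcl5 was at 0.465 FPKM and listed at 0 under CD, and at 0.228 and 2.92 FPKM under HFD. At either temperature these ligands stayed at or below 0.595 FPKM. Near-identical stretches of these paralogs can share fragments, which makes the split between them uncertain.

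Promoters of Cxcl1, Cxcl2 and Ccl9 are shown as examples of ligands with the gap between the CD libraries whose promoter holds the NF-kappaB consensus. Of the 11 ligands with the gap, 8 have a promoter in the table, of which 4 hold the consensus (Ccl9, Cxcl10, Cxcl2 and Cxcl1) and 4 do not (Ccl6, Ccl12, Ccl8 and Ccl3). Sequences are the 250 bases before the RefSeq start on GRCm38.p6, with motif matches on either strand in capitals. Cxcl1 (chr5:90890995-90891244, plus strand) holds 2 overlapping matches 71 to 61 bases before the start, and Cxcl2 (chr5:90903649-90903898, plus strand) 2 overlapping matches 97 to 87 bases before it. Ccl9 (chr11:83578637-83578886, minus strand) holds the AP-1 site 53 to 47 and the NF-kappaB consensus 35 to 26 bases before the start.
Cxcl1: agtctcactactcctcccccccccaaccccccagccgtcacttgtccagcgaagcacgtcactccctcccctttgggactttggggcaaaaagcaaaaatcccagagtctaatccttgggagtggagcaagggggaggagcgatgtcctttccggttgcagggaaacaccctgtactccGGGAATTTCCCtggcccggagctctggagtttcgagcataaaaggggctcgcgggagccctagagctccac
Cxcl2: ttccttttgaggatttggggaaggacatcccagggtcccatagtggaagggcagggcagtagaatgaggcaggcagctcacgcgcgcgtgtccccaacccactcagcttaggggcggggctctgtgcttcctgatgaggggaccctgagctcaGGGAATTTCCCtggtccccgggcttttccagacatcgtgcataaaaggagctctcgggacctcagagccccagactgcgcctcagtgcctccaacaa
Ccl9: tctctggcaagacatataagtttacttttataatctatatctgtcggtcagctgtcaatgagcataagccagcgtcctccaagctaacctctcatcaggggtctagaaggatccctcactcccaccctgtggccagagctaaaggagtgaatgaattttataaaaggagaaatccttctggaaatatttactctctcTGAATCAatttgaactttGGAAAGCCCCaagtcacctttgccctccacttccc

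Of 14 listed NF-kappaB inputs and feedback genes, 13 were tested under HFD, 0 were past threshold and 9 were higher in both HFD libraries, beside 39.9% of all genes. Tnf, a cytokine that activates NF-kappaB, was at 0.585 and 0.0325 FPKM under CD and at 0.461 and 0.563 FPKM under HFD, so that CD replicate 6 lay above both HFD libraries as it did for Cxcl2. With library type as a term 1 of the 13, Vcam1, was past threshold (4.25% of all genes). In the cold the same list had 0 of 12 past threshold, beside 1.44% of all genes, and 2 with library type as a term, Nfkbia and Relb (4.92%). Nfkbia, the inhibitor induced by NF-kappaB, was at 10.8 and 10.5 against 28.6 and 24.5 FPKM (log2 fold change 1.24, SE 0.19, adjusted p = 0.0517). Relb, a subunit, was at 4.20 and 4.29 against 1.64 and 1.22 FPKM (-1.12, SE 0.18, adjusted p = 0.0517). Nfkbia was past threshold in 7 of 14 alternatives and Relb in 8, with adjusted p from 0.0252 to 0.171 and from 0.0184 to 0.171.

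Among the Cxcr3 ligands, Cxcl10 was at 2.51 and 0.354 FPKM under CD and at 1.98 and 4.97 FPKM under HFD (log2 fold change 0.95, SE 0.51, adjusted p = 0.447). Cxcl9 did not share the gap between the CD libraries, and its fold change was 0.51 (SE 0.29, adjusted p = 0.48). Cxcl11 stayed at or below 0.173 FPKM in all 4 diet libraries. Of the 10 interferon pathway genes tested under HFD, 0 were past threshold and 7 were higher in both HFD libraries, beside 39.9% of all genes. With library type as a term 2 were past threshold and higher, Gbp2 and Irf7, beside 4.25%. Under CD, replicates 6 and 8 were at 14.1 and 3.67 FPKM for Gbp2 and at 4.18 and 1.08 FPKM for Irf7.

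Ccl21a (ENSMUSG00000094686, chr4:42772860-42773993, minus strand), a Ccr7 ligand of lymphatic vessels and lymph nodes, had the opposite gap within CD. It was at 0.0237 FPKM in CD replicate 6, about 2 fragments, and at 1.12 FPKM in CD replicate 8, with 3.12 and 1.43 FPKM under HFD. Ccl21a differed by 1.10 (log2, SE 0.39, limma adjusted p = 0.265), by 1.63 without CD replicate 8 and by 0.58 without CD replicate 6. In the fit without CD replicate 8, Ccl21a passed the filter through the HFD libraries alone, so its direction there was fixed. With library type as a term its adjusted p was 0.00711. It was past threshold in 4 of 14 alternatives, with adjusted p up to 0.663 over all of them. Among the 4 is the fit without CD replicate 8, whose call supports nothing because the filter fixed it. At 22 °C it was at 1.07 and 0.464 FPKM and at 4 °C at 0.125 and 0.507 FPKM. The 5 lymphatic endothelial markers summed to 3.57 and 3.32 FPKM under CD and 9.64 and 8.17 FPKM under HFD. Lyve1 and Pdpn were the 2 that were higher in both HFD libraries (39.9% of all genes). Prox1, Reln and Flt4 overlapped between the diets. Like Ccl21a, Prox1 (0.00867 and 0.193 FPKM under CD), Reln (0.0800 and 0.778) and Flt4 (0.349 and 0.723) were lower in CD replicate 6 than in CD replicate 8. The part of these cells in the Ccl21a values was not tested. Ccl21a has near-identical copies and overlaps 4930578G10Rik on the opposite strand, so its fragments may be shared.

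Several stromal and homeostatic ligands kept within a narrow range. Cxcl12 stood between 5.63 and 10.5 FPKM in all 8 libraries, Ccl27a, a Ccr10 ligand, between 4.42 and 9.68 FPKM, and Ccl25, a Ccr9 ligand, between 1.75 and 3.46 FPKM. For these 3 the CD and HFD libraries overlapped, with adjusted p of 0.808, 0.624 and 0.794. Ccl27a overlaps Il11ra1 and Ccl25 overlaps Elavl1 on the opposite strand. The membrane-bound ligands Cxcl16 and Cx3cl1 did not pass the test, and both were higher in both HFD libraries, as were 39.9% of all genes. Cxcl16, the ligand of Cxcr6, was at 1.43 and 0.809 against 2.71 and 2.70 FPKM (log2 fold change 0.82, SE 0.26, adjusted p = 0.227). Cx3cl1, fractalkine, was at 0.458 and 0.697 against 1.30 and 1.02 FPKM (0.45, SE 0.18, adjusted p = 0.308).

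Leaving out CD replicate 6 is also the diet comparison within libraries whose identifiers begin alike, with CD replicate 8 alone as the control and assumed to vary like the HFD libraries. In that fit 12 of 29 ligands were past threshold, all higher under HFD, beside 4.22% of all genes. They were Ccl2, Ccl3, Ccl4, Ccl6, Ccl7, Ccl8, Ccl9, Ccl11, Ccl12, Cxcl1, Cxcl5 and Cxcl10. Of these, 4 (Ccl3, Ccl4, Cxcl1 and Cxcl5) lay below the filter in CD replicate 8 and entered that fit through the HFD libraries alone, so the filter fixed their direction and their calls support nothing. The other 8 were above the filter in CD replicate 8. All of the 8 but Ccl11 are among the 11 ligands with the gap between the CD libraries. For these, leaving out the higher CD library raised the fold change by construction, so their calls add no separate support. Without CD replicate 8 only Ccl21a of 31 was past threshold, beside 1.35% of all genes. Without HFD replicate 2 there were 7 of 29, beside 2.08%, and without HFD replicate 6 there were Ccl8 and Ccl21a, beside 0.584%. Ccl21a in turn lay below the filter in CD replicate 6 and entered the fit without CD replicate 8 through the HFD libraries alone. Its call in that fit therefore supports nothing either. Both HFD libraries lay above CD replicate 8 in 27 of 31 ligands, beside 68.8% of all genes, and above CD replicate 6 in 16, beside 52.5%.

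**Figure D4:**
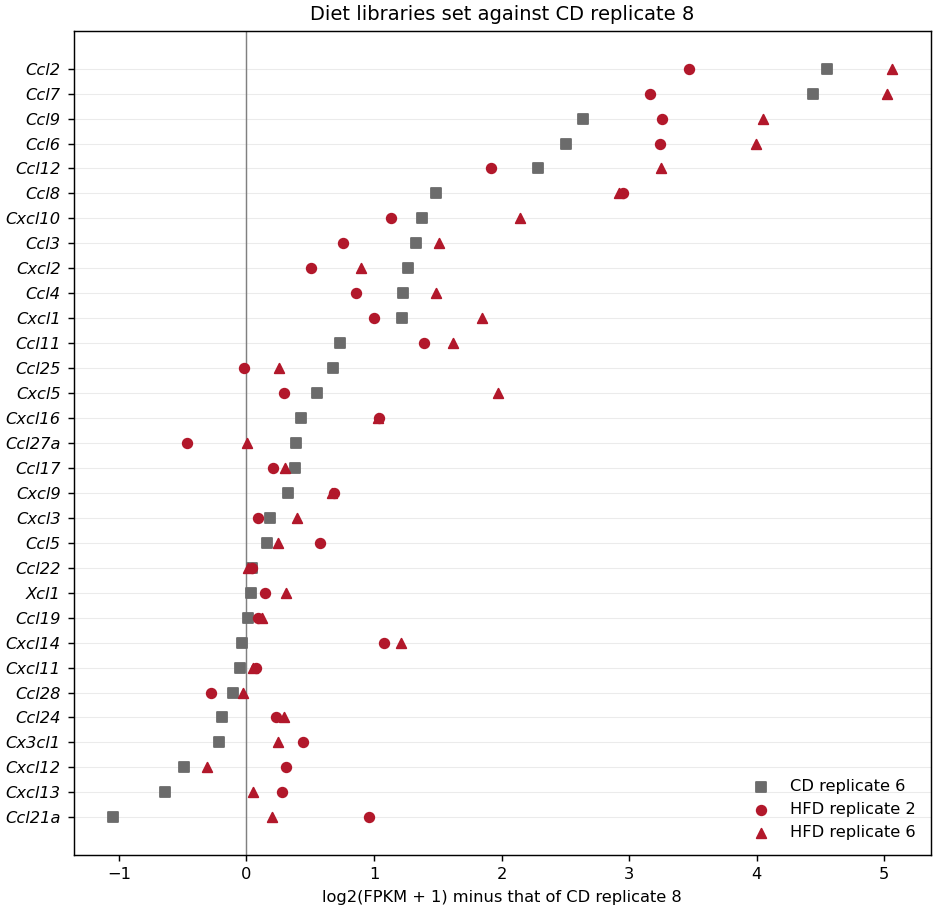
Difference in log2(FPKM + 1) between CD replicate 8 and the other 3 diet libraries for the 31 ligands tested, ordered by CD replicate 6. The squares of CD replicate 6 lie among the HFD points for Ccl2, Ccl7, Ccl12, Ccl3 and Ccl4, left of both HFD points for Ccl6, Ccl9, Ccl8 and Ccl11, and at the far left for Ccl21a.

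Markers of other cell types were measured beside the diet result. Of 10 macrophage and monocyte markers, 9 were higher in both HFD libraries (39.9% of all genes) and 0 were past threshold, with sums of 114 and 41.4 FPKM under CD and 198 and 254 FPKM under HFD, and none at 0 throughout. With library type as a term, 7 of the 10 were past threshold, all higher, beside 4.25% of all genes. So were 1 of 5 neutrophil, 3 of 6 fibroblast and 3 of 5 white adipocyte markers. The same held for 1 of 4 eosinophil and mast cell, 1 of 8 lymphocyte, 1 of 4 dendritic cell and 1 of 4 lymphatic endothelial markers. All 11 muscle markers and 2 of 8 brown adipocyte markers were past threshold and lower, and 0 of 6 blood endothelial and 0 of 2 lymph node markers were past it. Cd68, a lysosomal protein of macrophages, was at 6.79 and 1.89 FPKM under CD and at 29.6 and 21.1 FPKM under HFD (log2 fold change 2.46, SE 0.51, adjusted p = 0.151). Adgre1, the F4/80 antigen, was at 4.32 and 1.46 against 11.8 and 11.9 FPKM (1.83, SE 0.42, adjusted p = 0.16). In 7 of the 10, Cd68 and Adgre1 among them, CD replicate 6 lay above CD replicate 8 and below both HFD libraries. In Ly6c2, a marker of inflammatory monocytes, it lay between the HFD libraries (2.19 and 0.639 against 1.43 and 4.36 FPKM), the order of Ccl2. In Csf1r and Cd163 it lay below CD replicate 8. Of 5 neutrophil markers tested, 4 were higher in both HFD libraries (39.9% of all genes), with sums of 5.10 and 3.70 against 8.12 and 16.9 FPKM. All 11 muscle markers were lower in both HFD libraries (5.8% of all genes), with sums of 617 and 1622 against 203 and 36.8 FPKM. Of 5 white adipocyte markers tested, all were higher in both HFD libraries (39.9%) and 3 rose, Lep, Nnat and Mest (each adjusted p = 0.0425, beside 0.0684% of all genes past threshold), with sums over the list of 21.9 and 12.7 against 174 and 182 FPKM. The call of Lep was lost in 5 of 14 alternatives and those of Nnat and Mest in 4. Of 6 fibroblast markers, all were higher in both HFD libraries and 0 were past threshold, with sums of 89.3 and 98.9 against 262 and 240.1 FPKM. The part of these cells in the ligand values was not tested.

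Of 18 listed chemokine receptors, 9 were tested under HFD and 8 in the cold, and 0 were past threshold in either, beside 0.0684% and 1.44% of all genes. With library type as a term there were 0 in the cold and 1 under HFD, Ccr2 (1.19 on the log2 scale, adjusted p = 0.00987), which was past threshold in 2 of 14 alternatives. Ccr2 was at 4.35 and 0.814 FPKM under CD and at 3.76 and 9.60 FPKM under HFD, with the order of libraries that Ccl2 had, and at 0.785 to 1.98 FPKM at either temperature. Ccr1 (1.42 and 0.0514 against 0.717 and 4.21 FPKM) had the same order. Cxcr4, the receptor of Cxcl12, was at 0.437 and 0.581 FPKM at 22 °C and at 1.19 and 1.32 FPKM at 4 °C, and at 0.409 and 0.535 FPKM under CD and at 1.45 and 1.74 FPKM under HFD. It was higher in both libraries in each comparison (adjusted p = 0.0669 in the cold and 0.151 under HFD). Of the 5 atypical receptors, which bind chemokines without G protein signalling, 0 were past threshold, and Ackr4, which takes up Ccr7 ligands, was at 6.93 to 18.9 FPKM.

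Genes that process or present chemokines were listed too. Sdc4, a heparan sulfate proteoglycan that can hold chemokines at the cell surface, was at 19.3 and 22.2 FPKM at 22 °C and at 133 and 130.1 FPKM at 4 °C. It rose by 2.61 (log2, SE 0.21) with an adjusted p of 0.0206, the only one of the 7 listed genes tested that was past threshold in the cold, beside 1.44% of all genes. The call was lost in 3 of 14 alternatives, among them the fit without 4 °C replicate 2 (adjusted p = 0.0899), within a range of 0.000146 to 0.13. Mmp12, a macrophage metalloelastase that cleaves chemokines, was at 4.41 and 0.495 FPKM under CD and at 12.2 and 21.9 FPKM under HFD (log2 fold change 2.61, SE 0.61, adjusted p = 0.163, or 0.00494 with library type as a term), and at or below 0.0843 FPKM at either temperature.

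Ccl6, Ccl9 and Cxcl14 were the 3 ligands whose groups did not overlap with a fold change of at least 1 in both comparisons, which share no library, although in the cold Ccl6 and Cxcl14 were below 1 without 4 °C replicate 2. These are 3 of the 25 ligands tested in both, beside 0.362% of the 16559 genes tested in both. Over all alternatives the fold change of Cxcl14 fell as low as 0.84 in the cold and 0.82 under HFD. Cxcl14 differed from Ccl6 and Ccl9 in the diet libraries, where its CD values were 4.23 and 4.36 FPKM. Cxcl13 and Cxcl9 had their widest difference in the cold, and Ccl8, Ccl11 and Ccl21a under HFD. Whether the changes of a ligand differ between the 2 comparisons was not tested.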

How the data were processed

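The authors depleted ribosomal RNA, prepared directional libraries and sequenced 8 BAT libraries. Reads were mapped with TopHat2 2.0.10, and genes were assembled with Cufflinks (2.2.1 in the submitters' processing notes). The deposited table holds FPKM made by the authors, 1 value per gene and library, and positions on GRCm38. No sample column was left out.

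Groups were taken from the labels. Gene models came from GENCODE M21, matched for 49195 of 49452 genes. The study tested counts, which were not used here, so log2(FPKM + 1) was fitted with limma 3.58.1 in R 4.3.3 (lmFit, eBayes with an intensity trend), each comparison on its own 4 libraries and without covariates. The added 1 understates the change of low genes. Genes with at least 0.1 FPKM in 2 of 4 libraries were tested, X, Y and mitochondrial genes excepted. P-values are two-sided and Benjamini-Hochberg adjusted over all genes tested. The fit was tested on simulated data with the same spread for every gene. Of 50 genes changed by 1 (log2), it recovered 26 in the cold setting and 1 in the HFD setting. Of 50 changed by 2, it recovered 50 and 22. Alternatives were another pseudocount (0.1), filter, scaling, covariate, gene set or trend, and leaving out each library. Tables and plots used Python 3.11.15, pandas 2.3.3, NumPy 2.4.6 and Matplotlib 3.10.9.

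Depth is not stated. In single-transcript genes, 98.0% to 98.8% of low values fell on whole fragments within 0.1, and the resulting step covers counting error only. Values were printed in full for ligands past threshold, for those with non-overlapping groups and a fold change of at least 1, and for the 6 with the highest mean, others where they complete a family. List genes named outside this rule were chosen after their values were seen. Members and lists were chosen with earlier results of these data known.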

Additional observations from a re-analysis of the deposited data

How the results depend on the processing

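With 2 libraries a group, depth and replication limit what low ligands can show. For 43 named genes and comparisons, 470 of 596 alternative values kept direction and side of the threshold, 89 became past threshold, 29 lost it and 8 changed sign. All sign changes came from leaving out 1 library. The log2 fold change in the cold then ran from -0.55 to 0.38 for Ccl11 (-0.09 with all 4) and from -0.16 to 0.53 for Ccl8 (0.18). Under HFD it ran from -0.28 to 4.26 for Ccl2, -0.35 to 4.09 for Ccl7, -0.20 to 1.13 for Ccl3 and -0.059 to 1.17 for Ccl4, each lowest without CD replicate 8 and highest without CD replicate 6. The cause was not tested.

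In the cold, 252 genes and 1 ligand were past threshold. These counts became 474 and 1 with a pseudocount of 0.1, 0 and 0 with no filter, 529 and 2 with a filter of 1 FPKM, 708 and 3 after median centring, 491 and 2 after quantile normalization, 439 and 3 with all 8 libraries, 859 and 4 with library type as a term, 869 and 3 with both, 920 and 3 with X, Y and mitochondrial genes kept, and 0 and 0 without an intensity trend. Leaving out 1 library gave 1 to 767 genes and 0 to 3 ligands, the lowest without 4 °C replicate 2.

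Under HFD, 12 genes and 0 ligands were past threshold. The counts were 0 and 0 with no filter, 24 and 0 with a filter of 1 FPKM, 0 and 0 after quantile normalization, 75 and 0 with all 8 libraries, 745 and 7 with library type, 439 and 3 with both, and 0 and 0 with X, Y and mitochondrial genes or without a trend. Leaving out 1 library gave 98 to 726 genes and 1 to 12 ligands. The ligands' median of 0.49 became 1.25 with a pseudocount of 0.1, 0.82 with a filter of 1 FPKM, 0.17 after median centring, 0.26 after quantile normalization and 0.25 to 0.72 without 1 library.

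No paired analysis was possible because, by replicate number, the temperature groups share none and the diet groups only 1. Library type sets 1 library of each type in every group, and the fit with it as a term, given above, compares libraries within type. On 4 libraries it leaves little residual freedom per gene, in the cold as under HFD.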

Other observations

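Pf4 and Ppbp are platelet chemokines whose symbols fall outside the rule. Pf4, which also marks some macrophages, was at 12.7 and 6.35 FPKM at 22 °C, 14.0 and 6.75 FPKM at 4 °C, 13.4 and 5.23 FPKM under CD and 43.3 and 47.2 FPKM under HFD. The higher library of each of the first 3 groups was at 12.7 to 14.0 FPKM, and both HFD libraries lay above all 6 (log2 fold change 2.28, SE 0.49, limma adjusted p = 0.151). With library type as a term the limma adjusted p of Pf4 was 0.00684, and the gene was past threshold in 3 of 14 alternatives. Ppbp was at 0.131 and 0.482 FPKM at 22 °C, 0.216 and 0.113 FPKM at 4 °C, 1.33 and 0.872 FPKM under CD and 0.921 and 2.97 FPKM under HFD, with overlapping groups in both comparisons.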
